A study of Mus musculus with 10 samples.

Results

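Chromatin accessibility in the mTEC1 and mTEC2 fractions of mouse thymic epithelium at day 6 was compared through the ATAC-seq peak lists of 4 of the series' 10 libraries, 2 per fraction. Peaks of the 4 lists were merged into 198028 regions wherever they overlapped or touched. A region counted as mTEC1-only when it was called in both mTEC1 lists and in neither mTEC2 list, which held for 4779 regions, and as mTEC2-only in the converse case, which held for 4155 regions. Because the lists differ in length, every count was repeated after each list was reduced to its 40858 strongest peaks, the length of the shortest list, ranked by the authors' −log10 q. These equal-length lists merged into 100180 regions, of which 1510 were mTEC1-only and 3030 were mTEC2-only.

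All 4 libraries came from wild type C57BL/6 mice at day 6. Thymi were digested with Liberase TH and DNase, and epithelial cells (TEC) were sorted before the assay, which inserts sequencing adapters into accessible DNA; the labels describe the material as nucleosome-free chromatin. The other 6 libraries were 2 E15, 2 E17 and 2 day 6 mTEC4 libraries of the same strain and genotype, and they were used here only as lists that had no part in defining the sets. The labels neither give the sort gates nor spell out the fraction names, and the peak names inside the lists carry the tag eTEC for the mTEC1 libraries and Hi for the mTEC2 libraries. Whether the replicates came from separate animals or pools is not given, so the spread between them may be technical.

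The thymic medulla is built by medullary epithelial cells that display self-antigens to developing T cells. Ccl21a encodes a chemokine that draws T cells into the medulla and marks one medullary population, while Aire, a regulator that switches on tissue-restricted antigens, marks another. Cortical epithelial cells support earlier T cell stages and use Psmb11, the thymoproteasome subunit, and Prss16, a thymus-specific protease, to make the peptides of positive selection. Foxn1 is the transcription factor on which the differentiation of both branches depends. An ATAC-seq peak marks DNA that is open to transposase, often a promoter or enhancer, and it does not measure expression.

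The promoters of 4 thymic epithelial genes that differed between the fractions in at least 1 setting are shown here because the later results return to them. Ccl21a differed in both settings, Krt18 and Enpep as deposited alone, and Psmb11 at equal length alone. Each line gives the 250 bases before the RefSeq start site (GRCm38.p6), read 5′ to 3′ on the gene's strand, with capitals for bases under a peak in both lists of 1 fraction. The capitals mark both mTEC1 lists for Ccl21a (chr4:42773992-42774241, minus strand). They mark both mTEC2 lists for Krt18, a simple-epithelium keratin (chr15:102027966-102028215, plus strand), for Enpep, the aminopeptidase that cortical epithelium displays as the antigen Ly51 (chr3:129332750-129332999, minus strand), and for Psmb11 (chr14:54625060-54625309, plus strand).
Ccl21a: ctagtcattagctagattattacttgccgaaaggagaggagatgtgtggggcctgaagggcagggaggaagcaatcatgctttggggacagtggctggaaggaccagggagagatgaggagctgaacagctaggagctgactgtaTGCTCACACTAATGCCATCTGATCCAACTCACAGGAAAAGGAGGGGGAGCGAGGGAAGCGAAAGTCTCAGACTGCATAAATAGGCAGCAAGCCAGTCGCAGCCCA
Krt18: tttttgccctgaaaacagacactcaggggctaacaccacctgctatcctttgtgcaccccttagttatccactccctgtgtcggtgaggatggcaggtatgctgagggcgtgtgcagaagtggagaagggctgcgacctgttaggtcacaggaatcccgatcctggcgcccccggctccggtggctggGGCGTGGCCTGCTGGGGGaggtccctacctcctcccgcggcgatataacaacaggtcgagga
Enpep: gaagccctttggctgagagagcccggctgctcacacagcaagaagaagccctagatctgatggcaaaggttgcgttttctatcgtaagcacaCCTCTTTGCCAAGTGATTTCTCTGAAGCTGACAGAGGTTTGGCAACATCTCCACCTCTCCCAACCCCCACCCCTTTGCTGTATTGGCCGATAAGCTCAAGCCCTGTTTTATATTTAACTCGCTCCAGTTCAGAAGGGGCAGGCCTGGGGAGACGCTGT
Psmb11: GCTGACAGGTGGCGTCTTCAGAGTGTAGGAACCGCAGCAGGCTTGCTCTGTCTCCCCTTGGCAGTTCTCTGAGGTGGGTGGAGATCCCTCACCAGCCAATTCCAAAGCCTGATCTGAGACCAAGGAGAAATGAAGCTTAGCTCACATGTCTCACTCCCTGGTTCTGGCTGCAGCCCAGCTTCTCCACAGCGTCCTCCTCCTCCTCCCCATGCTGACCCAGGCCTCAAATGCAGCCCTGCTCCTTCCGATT
The capitals cover 105 of the 250 bases at Ccl21a, 18 at Krt18, 158 at Enpep and all 250 at Psmb11, so the Krt18 call rests on a short stretch that the mTEC2 peaks share. As deposited, a weaker mTEC1 replicate 2 peak (−log10 q 1.34) also lay over the Psmb11 stretch, so its capitals do not separate the fractions.

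The libraries differed more than their labels. The lists held 82281 peaks for mTEC1 replicate 1, 71327 for mTEC1 replicate 2, 101917 for mTEC2 replicate 1 and 40858 for mTEC2 replicate 2. Read depth is not given with the lists, so a missing peak means only that none was called. The mTEC1 replicate 1 library stood apart: 69.8% of its peaks overlapped no embryonic peak, against 41.7% for mTEC1 replicate 2, 42.0% for mTEC2 replicate 1 and 32.6% for mTEC2 replicate 2. It also had the highest share of its peaks on the X chromosome, 6.36%, against 3.25% to 4.13% in the other 3 lists, and 58.5% of its regions were called in no other list of the 4. The mTEC4 lists were nearer to it in these measures, with 73.1% and 58.0% of peaks outside all embryonic peaks. The similarity, the set sizes, the placement, the overlap with the embryonic lists and the cortical gene counts are given with and without it, and the other results of the mTEC1-only set rest on it.

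The labelled fractions did not hold the most similar lists. Similarity was the bases under a peak in both lists as a share of the bases under a peak in either, so wide peaks weigh more. It was 17.6% for the 2 mTEC1 lists and 19.3% for the 2 mTEC2 lists. The most similar pair crossed the fractions: mTEC1 replicate 2 and mTEC2 replicate 1 shared 25.3% of these bases. The mean over same-fraction pairs was lower by 0.917 percentage points than the mean over the other pairs (exact permutation test over the 3 pairings, one-sided p = 1.0). At equal list length the same pair shared 37.1%, and the difference of means was -0.702 percentage points (exact p = 0.667). With 2 lists per fraction the smallest p this test can give is 0.333, so every difference between the fractions below is a description.

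Regions called in 1 fraction alone were a small part of the whole, fewer than those of the crossed pairing and more than those of the pairing by replicate number. Of all merged regions, 71.7% were called in 1 list and 7.19%, or 14248 regions, in all 4. The mTEC1-only regions made up 2.41% of the merged regions and the mTEC2-only regions 2.1%. At equal list length the shares were 1.51% for mTEC1-only and 3.02% for mTEC2-only, so the order of the fractions turned with the list length. Counted over both sides, pairing by fraction gave 8934 regions, pairing by replicate number 7456 and the crossed pairing 12892. At equal length the totals were 4540, 3300 and 5540. The crossed pairing was highest because of 1 side, with 11535 regions called in mTEC1 replicate 2 and mTEC2 replicate 1 alone, and 4363 at equal length. When only peaks with −log10 q of at least 5 were kept, pairing by fraction gave the fewest regions of the 3 pairings, 511 against 829 and 1898.

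**Figure D1:**
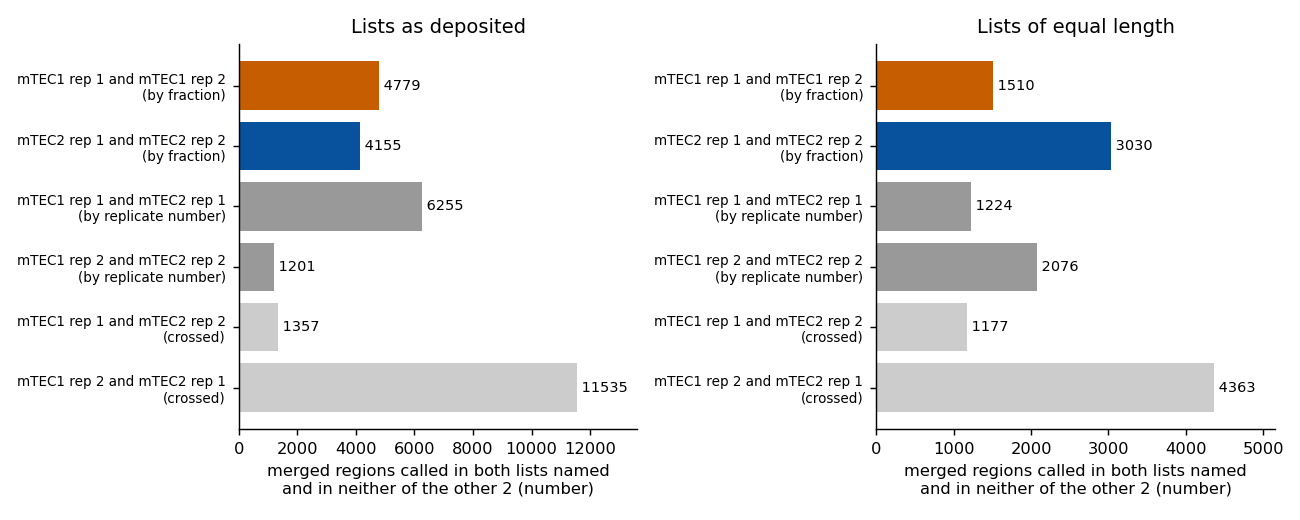
Number of merged regions called in both named lists and in neither of the other 2, for the 3 ways to pair the 4 lists, with lists as deposited (left) and of equal length (right). The mTEC1-only (4779 and 1510) and mTEC2-only (4155 and 3030) bars are both shorter than the bar for mTEC1 replicate 2 with mTEC2 replicate 1 (11535 and 4363).

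The mTEC1-only and mTEC2-only sets differed in where they lay, less so at equal list length. Of the mTEC1-only regions, 2.76% fell within 1 kb of an end of a protein-coding gene, 28.1% inside a gene span and 69.1% elsewhere. The mTEC2-only regions were placed 8.81%, 43.9% and 47.3% in the same classes. All merged regions were placed 8.75%, 35.2% and 56.1%, so the mTEC2-only share at gene ends was near that of all regions. The X chromosome held 8.06% of the mTEC1-only, 2.41% of the mTEC2-only and 5.11% of all merged regions. The median widths of the mTEC1-only and mTEC2-only regions were 274 and 158 bp. At equal length the shares were 8.01%, 34.1% and 57.9% for mTEC1-only and 11.9%, 41.8% and 46.3% for mTEC2-only regions, with 6.56% and 1.98% on the X chromosome and median widths of 185 and 156 bp. All merged regions at equal length were placed 13.9%, 35.9% and 50.2%, with 4.1% on the X chromosome. Both gene-end shares, 8.01% and 11.9%, then lay below that of all merged regions. As deposited, regions called in all 4 lists were placed at gene ends in 54.4% of cases. In the crossed pairing, regions called only in mTEC1 replicate 1 and mTEC2 replicate 2 lay elsewhere in 64.2% of cases and those called only in mTEC1 replicate 2 and mTEC2 replicate 1 in 45.5%, or 57.6% and 43.9% at equal length. In the pairing by replicate number the set with mTEC1 replicate 1 lay elsewhere in 62.2% and the set without it in 48.5%, but at equal length in 47.5% and 45.4%. Without mTEC1 replicate 1, the mTEC1-only regions lay elsewhere in 60.3% of cases and the mTEC2-only regions in 48.2%, or 54.1% and 45.9% at equal length. Their X chromosome shares were then 5.68% and 2.71%, and the mTEC1-only regions had the smaller median width.

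The 2 sets differed most in the embryonic lists, which the rule did not use. The mTEC1-only regions were called in 9.67% and 10.6% of cases in the E15 lists and in 10.8% and 11.3% in the E17 lists. The mTEC2-only regions were called in 69.6% and 69.3% of cases in the E15 lists and in 63.7% and 73.2% in the E17 lists. Of all merged regions, the E15 lists called 31.6% and 31.4% and the E17 lists 28.9% and 34.8%. The mTEC1-only values lay below these and the mTEC2-only values above them in each embryonic list. The mean difference between the sets was 58.4 percentage points (SD 3.85 over the 4 embryonic lists). This SD does not measure the spread between mTEC1 or mTEC2 libraries. All 4 embryonic lists called 333 mTEC1-only regions, or 6.97%, and 2463 mTEC2-only regions, or 59.3%, against 25.7% of all merged regions. The order was the other way round in the mTEC4 lists, at 37.6% and 29.4% of mTEC1-only against 9.8% and 22.6% of mTEC2-only regions. The mTEC4 lists called 17.9% and 20.2% of all merged regions. At equal length this held in mTEC4 replicate 1 (27.4% against 9.77%) and not in mTEC4 replicate 2 (26.0% against 26.1%). With all 10 lists reduced to equal length the embryonic means were 18.0% for mTEC1-only and 57.1% for mTEC2-only regions, a difference of 39.1 percentage points. The mean over all merged regions was then 30.6%.

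**Figure D2:**
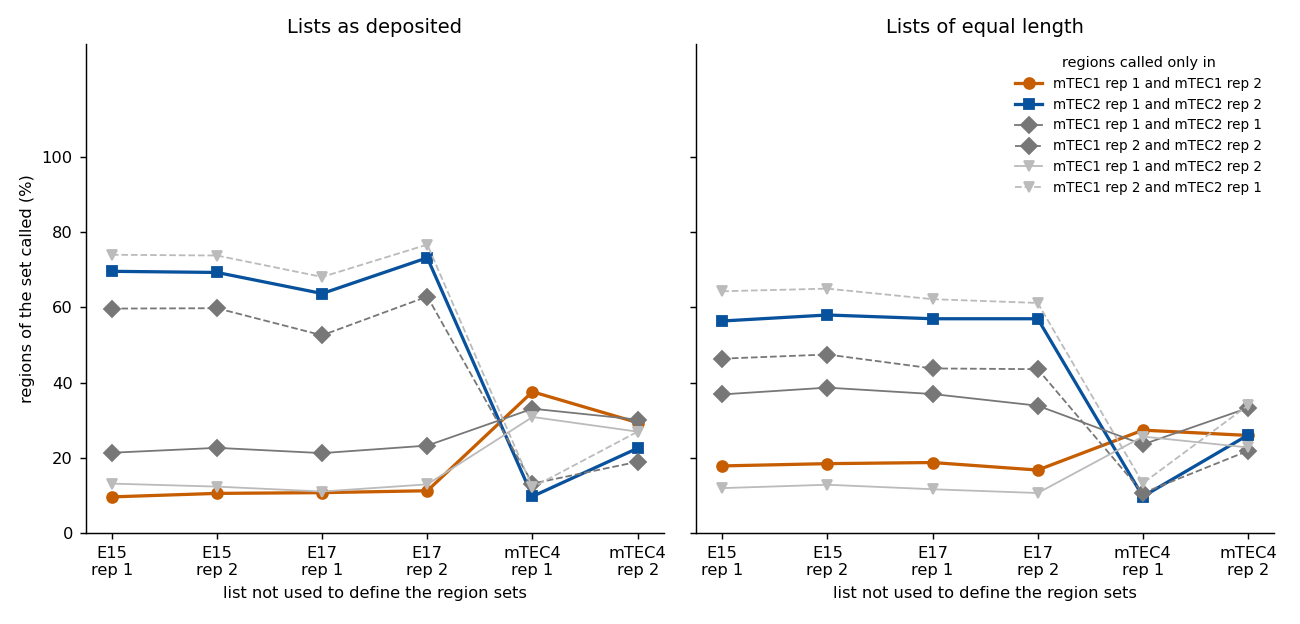
Share of each region set (%) that was called in each of the 6 lists not used to define the sets, with lists as deposited (left) and of equal length (right); colours mark the sets of the 2 fractions and greys the sets of the other pairings. As deposited, mTEC1-only regions lie between 9.67% and 11.3% in the embryonic lists and mTEC2-only regions between 63.7% and 73.2%, and the grey sets split by whether they contain mTEC1 replicate 1.

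This contrast moved with single libraries. In the other pairings the sets that contain mTEC1 replicate 1 had low embryonic means, 22.2% with mTEC2 replicate 1 and 12.4% with mTEC2 replicate 2, and the sets without it had high means, 58.7% and 73.2%. When mTEC1 replicate 1 was left out, so that mTEC1 replicate 2 alone stood against both mTEC2 lists, the difference was 46.4 percentage points. At equal length it was 38.8. As deposited, the difference was 75.7 without mTEC1 replicate 2 and 20.4 without mTEC2 replicate 2. Without mTEC2 replicate 1 the direction turned, to -8.03 percentage points as deposited and -29.5 at equal length. With 1 library left out, 1 side needed a call in 2 lists and the other in 1, so the sides were not alike. How far this unlike rule moved the difference was not tested. Compared 1 list against 1, the mTEC2 side had the higher embryonic share in 3 of the 4 pairs of lists. The exception was mTEC1 replicate 2 with mTEC2 replicate 2, where 37.0% of the regions called in the mTEC1 list alone and 32.0% of those called in the mTEC2 list alone were called per embryonic list, or 31.4% and 19.4% at equal length. A higher embryonic share on the mTEC2 side thus held in the pairs with mTEC1 replicate 1 and with mTEC2 replicate 1 and not in the remaining pair. Lists of the same fraction also differed when compared 1 against 1. Between the mTEC1 lists the embryonic shares were 6.49% for replicate 1 and 42.7% for replicate 2, or 5.65% and 37.3% at equal length. Between the mTEC2 lists they were 38.8% for replicate 1 and 22.2% for replicate 2, or 40.0% and 15.6% at equal length. Fewer cells of a type and less signal per cell cannot be told apart in such bulk lists.

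**Figure D3:**
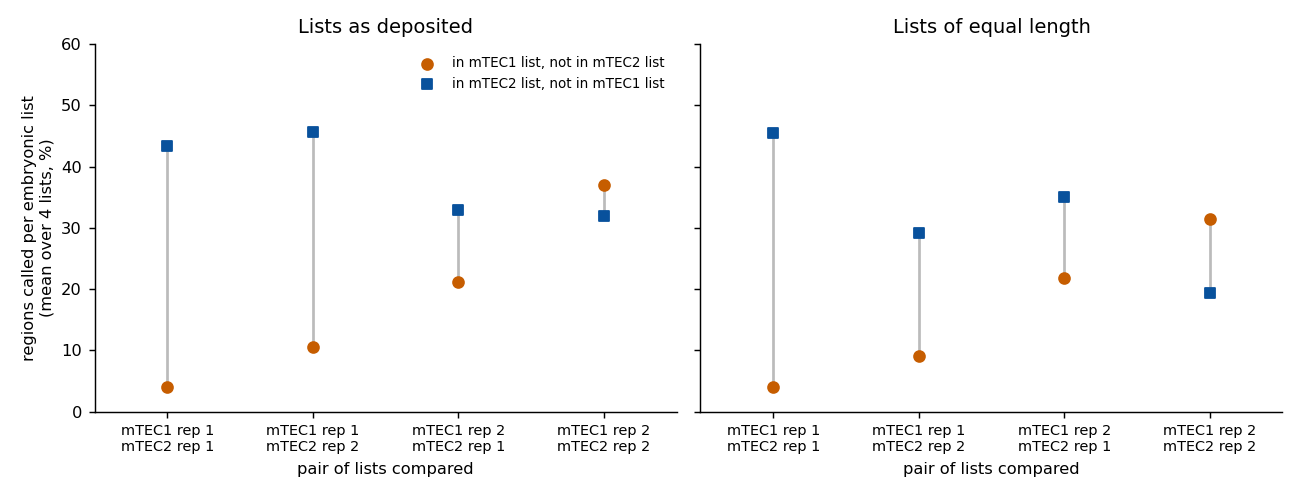
Mean share over the 4 embryonic lists (%) of regions called in 1 list of a pair and not in the other, for each mTEC1 list with each mTEC2 list, as deposited (left) and at equal length (right). The square for mTEC2 lies above the circle for mTEC1 in 3 pairs and below it for mTEC1 replicate 2 with mTEC2 replicate 2 (32.0% and 37.0% as deposited).

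The strongest mTEC1-only regions lay mostly away from genes of the thymic lists. The strongest by the poorer of its ranks in the 2 lists was chr19:3205657-3205806, 53270 bp from Ighmbp2, a helicase gene, with −log10 q of 44.2 and 17.6 in the mTEC1 replicates. Others lay inside Sult2a4, a sulfotransferase gene, with −log10 q of 7.71 and 12.5, inside Gucy1b2, a guanylate cyclase gene, with 15.2 and 7.24, and inside Rec114, a meiotic recombination gene, with 13.0 and 7.61. Further regions had Cntn1, a neuronal adhesion gene, and Rbms3, an RNA-binding protein gene, as the nearest gene, and 3 of the 10 had no protein-coding gene within 100 kb. Another lay inside Clec2e and was mTEC1-only at equal length alone. As deposited, mTEC2 replicate 1 also had a peak at this Clec2e region (−log10 q 1.56). At equal length, 9 of these 10 regions were called in 0 of the 4 embryonic lists, Rec114 being the exception with 1. As deposited the Rec114 region was called in 3 embryonic lists and those near Ighmbp2 and Cntn1 in 1 each.

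The strongest mTEC2-only regions had lower −log10 q in mTEC2 replicate 2, the shortest list, than in replicate 1. The strongest lay 6794 bp from Ly6g6g, a gene of the Ly6 family, with −log10 q of 20.3 and 11.8. The next lay inside Mrc1, the macrophage mannose receptor, with 12.8 and 10.9. Regions inside Cog6, a Golgi complex subunit, Grid2ip, a synaptic scaffold, Trdn, a calcium-release protein of muscle, and Rngtt, the mRNA capping enzyme, had −log10 q from 10.4 to 10.9 in replicate 1 and from 5.09 to 6.07 in replicate 2. The Rngtt region was mTEC2-only at equal length alone, since as deposited no region nearest to Rngtt was mTEC2-only. Zxdb and Gm10377 were the nearest genes of others, and 2 had none within 100 kb. The regions at Grid2ip and Rngtt were called in all 4 embryonic lists at equal length, and those at Mrc1 and Ly6g6g in 0. The Ly6g6g region was called in all 4 embryonic lists as deposited. By number of regions at equal length, Epb41l4a, Iqschfp, Egln3, Dmd and Pde10a led the mTEC1-only side with 3 each. Itpr1, an intracellular calcium channel, and Celf2, a splicing regulator, led the mTEC2-only side with 5 each, followed by Rapgef1, Myo10 and Gse1 with 4. Most of these genes are long, and their region counts by library spanned wide ranges, from 11 to 55 as deposited at Dmd.

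Cortical genes were nearest to mTEC2-only regions and to no mTEC1-only region, a count that changed without mTEC1 replicate 1. Of all protein-coding genes, 11.4% were the nearest gene to an mTEC1-only region and 13.7% to an mTEC2-only region, 2495 and 3003 genes. Of the 12 cortical genes 0 had an mTEC1-only and 4 an mTEC2-only region: Ccl25, a chemokine that draws progenitors into the thymus, Tbata, Cd83, which stabilises surface MHC class II, and Enpep. At equal length the background was 4.99% for mTEC1-only and 10.9% for mTEC2-only, and the cortical counts were 0 and 5, namely Psmb11, Kitl and Il7, cytokines for early thymocytes, Tbata and Enpep. Tbata and Enpep were the 2 cortical genes found in both settings. Without mTEC1 replicate 1, when mTEC1 replicate 2 alone stood against both mTEC2 lists, 9 of the 12 cortical genes had an mTEC1-only region (48.8% of all genes) and 5 an mTEC2-only region (17.3% of all genes). At equal length both counts were then 5, against 35.2% and 13.6% of all genes, so the absence of cortical genes from the mTEC1 side held only for regions that mTEC1 replicate 1 shared.

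Among the other lists, several counts changed with list length. Over all protein-coding genes the shares were 11.4% for mTEC1-only and 13.7% for mTEC2-only regions, and 4.99% and 10.9% at equal length. Of 16 NF-kB pathway genes, whose products carry the signals that mature medullary cells, 1 (6.25%) had an mTEC1-only and 5 (31.2%) an mTEC2-only region. At equal length the counts were 1 and 1 (6.25% each). Of 17 Aire-stage genes, 1 (5.88%) and 2 (11.8%) had such regions in each setting. They were Aire on the mTEC1 side, and Tnfrsf11a, the receptor RANK, and Ciita, the MHC class II transactivator, on the mTEC2 side. Of 14 genes of the Ccl21a-high list, 1 (7.14%) and 2 (14.3%) had such regions. Ccl21a stood on the mTEC1 side, and Ccl19, a related chemokine, and Dst, a hemidesmosome linker, on the mTEC2 side. The 23 tuft cell genes were the nearest gene in 4 cases (17.4%) for mTEC1-only regions, namely Plcg2, Hmx3, Ptgs1 and Alox5ap. For mTEC2-only regions they were so in 1 case (4.35%), Chat. At equal length the tuft cell counts were 1 (4.35%) and 2 (8.7%).

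Markers of cells that a sort can carry over appeared on both sides as deposited. Of 18 thymocyte and T cell genes, 3 (16.7%) had an mTEC1-only region and 6 (33.3%) an mTEC2-only region, among them Lck, the T cell kinase, and Cd3e. At equal length the counts were 1 (5.56%) and 3 (16.7%). The shares over all protein-coding genes were 11.4% and 13.7%, and 4.99% and 10.9% at equal length. Of the 21 promoters of this list, 4, 5, 13 and 5 lay under a peak in mTEC1 replicates 1 and 2 and mTEC2 replicates 1 and 2, and 1, 3, 7 and 5 at equal length. The mTEC2 replicate 1 list was highest in both settings. It was also highest over all promoters, where the shares were 41.3%, 48.1%, 51.8% and 38.9%, and 37.6%, 44.8%, 45.3% and 38.9% at equal length. Both mTEC2 lists had more of the T cell promoters under a peak than either mTEC1 list at equal length, which they did not have over all promoters. Ptprc, which encodes the leukocyte antigen CD45, had a peak over its promoters in none of the 4, and neither did Rag2 or Bcl11b. As deposited, both Themis promoters lay under a peak in all 4 lists and the Lat promoter in 3. Ptprc was also nearest to 1 mTEC2-only region as deposited. Of 8 endothelial genes 3 (37.5%) had an mTEC1-only and 3 (37.5%) an mTEC2-only region, and 1 and 3 at equal length. On the mTEC2 side their share was thus 37.5% in both settings, beside 33.3% and 41.7% of the cortical genes. Of 10 mesenchymal genes 2 and 4 had such regions, and 0 and 2 at equal length. Of 8 erythroid genes 0 had either, and 0 of the 6 erythroid promoters lay under a peak in any of the 4 lists. Of 13 dendritic cell and macrophage genes 2 (15.4%) had an mTEC1-only region and 2 (15.4%) an mTEC2-only region, near the shares over all genes. Adgre1, which encodes the macrophage antigen F4/80, had 3 mTEC1-only regions, and 0 at equal length. The part of such cells in the region sets was not tested.

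Counting regions in each gene's span with 10 kb on each side allowed each gene to be compared by library. Over all genes, 4.11% (900) had more regions in both mTEC1 lists than in either mTEC2 list, and 5.03% (1102) had more in both mTEC2 lists; at equal length the shares were 3.34% (730) and 7.72% (1690). The crossed set of mTEC1 replicate 2 and mTEC2 replicate 1 was higher at 5369 genes as deposited and 2294 at equal length. Among the 12 cortical genes, 0 were higher in mTEC1 and 4 in mTEC2 as deposited (Prss16, Ccl25, Tbata and Enpep), and 0 and 5 at equal length (Psmb11, Prss16, Tbata, Enpep and Dll4, the Notch ligand for T cell commitment). Summed over the 12 genes, the lists held 20, 38, 61 and 33 regions in mTEC1 replicates 1 and 2 and mTEC2 replicates 1 and 2, and 17, 23, 31 and 33 at equal length. The equal-length sums do not overlap between the fractions, and neither do those of the 12 housekeeping genes (29, 33, 37 and 34), the 8 endothelial genes (9, 10, 12 and 18), the 13 dendritic cell and macrophage genes (17, 27, 31 and 29) or the 14 genes of the Ccl21a-high list (15, 30, 31 and 33), all with the mTEC2 lists higher. Over all protein-coding genes the equal-length sums were 32497, 38624, 40746 and 37253, so the mTEC1 replicate 1 list had the fewest regions near genes.

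**Figure D4:**
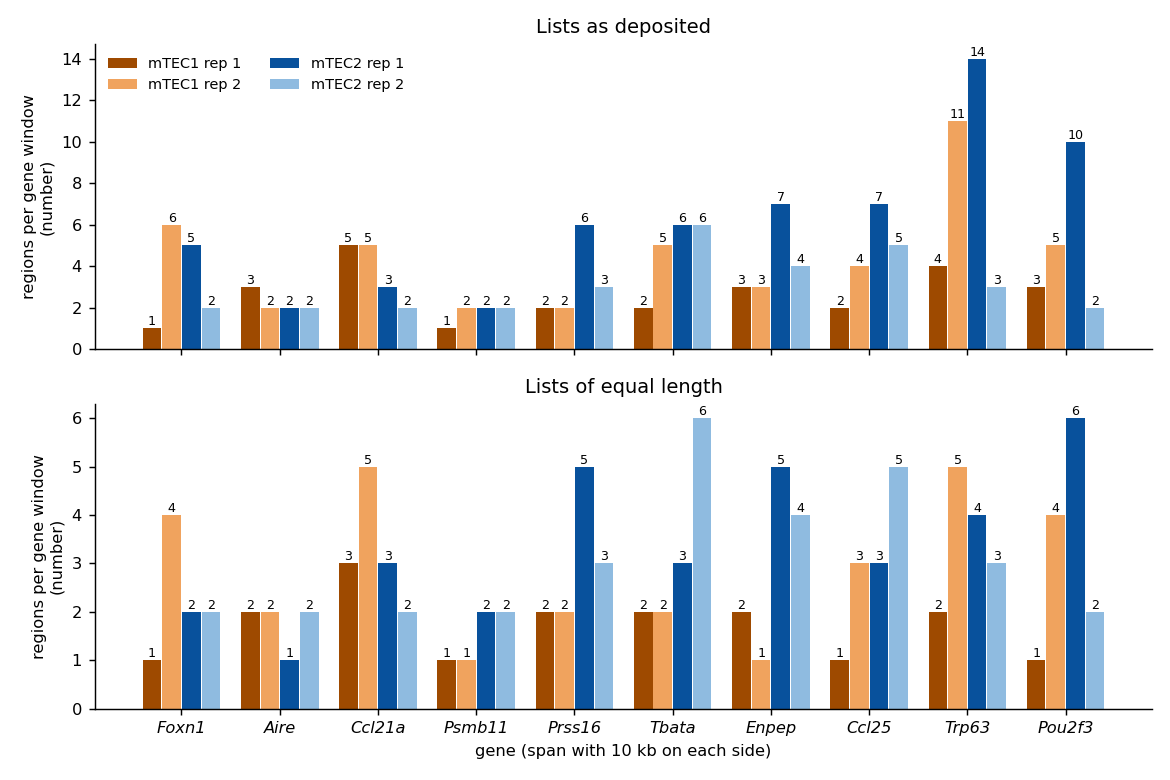
Regions called in each list within the span of a gene and 10 kb on each side, with lists as deposited (top) and of equal length (bottom); each bar is 1 library. Prss16 and Enpep are higher in both mTEC2 lists in each panel, Ccl21a is higher in both mTEC1 lists as deposited (5 and 5 against 3 and 2), and Foxn1, Trp63 and Pou2f3 differ mainly between replicates.

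Prss16 had 2 and 2 regions in the mTEC1 lists and 6 and 3 in the mTEC2 lists, and 2, 2, 5 and 3 at equal length. Its strongest region, chr13:22006150-22006585 inside the gene, was called in all 4 lists, with −log10 q of 5.82, 6.69, 9.45 and 4.05. The surplus came from regions outside or at the ends of Prss16 that were called in 1 mTEC2 list each, so no single Prss16 region separated the fractions. Enpep had 3 and 3 regions in the mTEC1 lists and 7 and 4 in the mTEC2 lists, and its promoter region is described with the promoters below. Tbata, a gene expressed in thymic stroma, had 2, 5, 6 and 6 regions. One Tbata region inside the gene, chr10:61175926-61176159, was called in the mTEC2 lists alone, with −log10 q of 3.92 and 1.11, and in all 4 embryonic lists.

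Foxn1 (chr11:78357577-78386783) had 1 region in mTEC1 replicate 1, 6 in mTEC1 replicate 2, 5 in mTEC2 replicate 1 and 2 in mTEC2 replicate 2. The fractions overlap, and no Foxn1 region was specific to a fraction. A Foxn1 region inside the gene, chr11:78374125-78374746, was called in both mTEC1 lists and in mTEC2 replicate 1, with −log10 q of 3.02, 3.1 and 3.3, and in all 4 embryonic lists. The promoter of Foxn1 lay under a peak in 0 of the 4 mTEC1 and mTEC2 lists and in 4 of the 4 embryonic lists as deposited. At equal length it lay under a peak in 0 of the 4 mTEC1 and mTEC2 lists and in 1 embryonic list, E17 replicate 1.

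Trp63, the p63 factor of epithelial progenitors, had 4, 11, 14 and 3 regions in mTEC1 replicates 1 and 2 and mTEC2 replicates 1 and 2. Pou2f3, the master regulator of tuft cells, had 3, 5, 10 and 2. At both genes mTEC1 replicate 2 and mTEC2 replicate 1 were the high lists, and at equal length the counts were 2, 5, 4 and 3 for Trp63 and 1, 4, 6 and 2 for Pou2f3. Neither gene was nearest to a region specific to a fraction.

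Aire had 3 regions in mTEC1 replicate 1 and 2 in each of the other lists. Its promoter lay under a peak in mTEC1 replicate 2 (−log10 q 4.64), mTEC2 replicate 1 (7.94) and mTEC2 replicate 2 (3.98), in all 4 embryonic lists and, more weakly, in the mTEC4 lists (1.48 and 1.62). Only mTEC1 replicate 1 of the 10 lists had none there. The mTEC1-only region nearest to Aire, chr10:78024725-78025098, lay outside the gene, with −log10 q of 2.11 and 1.79, and was called in 0 embryonic lists.

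Promoters under a peak in 1 fraction alone were rare. RefSeq gives 300-base promoters, 250 before and 50 after the start, for 17469 protein-coding genes, 21238 in all, of which 41.3% and 48.1% lay under a peak in the mTEC1 lists and 51.8% and 38.9% in the mTEC2 lists. Both mTEC1 lists and neither mTEC2 list had a peak at 66 promoters (0.311%), and both mTEC2 lists and neither mTEC1 list at 149 (0.702%). At equal length the counts were 76 (0.358%) and 179 (0.843%), and 33 mTEC1-only and 77 mTEC2-only promoters were found in both settings. The mixed set of mTEC1 replicate 2 and mTEC2 replicate 1 was larger, with 862 promoters. As deposited, each embryonic list called 93.9% to 97.0% of the mTEC1-only and 87.9% to 90.6% of the mTEC2-only promoters, against 57.5% to 61.6% of all promoters. At equal length these ranges were 55.3% to 68.4% and 43.6% to 71.5%, against 40.4% to 48.1% of all promoters.

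Of the 234 listed genes, 175 had a promoter, 202 in all; as deposited 2 of these were mTEC1-only, 4 were mTEC2-only, 50 lay under a peak in all 4 lists and 91 in none. The mTEC1-only promoters belonged to Ccl21a and Irf9, and at equal length also to Irf7, both interferon response factors. The Irf9 promoter is a second RefSeq start within a region called in all 4 lists (chr14:55603941-55604470), where the mTEC1 peaks reach further into the gene, so it is a difference in peak edge. The mTEC2-only promoters belonged to Krt18, Enpep, Lck and Kdr, a receptor of endothelial cells. At equal length they belonged to Psmb11, Ccl19, Dst and Hpgds, a prostaglandin D2 synthase.

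The Ccl21a promoter shown above lay under a peak in mTEC1 replicate 1 (−log10 q 2.21) and mTEC1 replicate 2 (1.93) and in neither mTEC2 list, in both settings. The peaks ranked at 35545 and 34256 in their lists, so they were of middling strength. As deposited, 3 of the 4 embryonic lists and 0 of the mTEC4 lists also had one. At equal length 0 of the embryonic and 0 of the mTEC4 lists did. The mouse carries near-identical copies of this gene on chromosome 4. The promoters of Ccl21d, Gm13304 and Gm10591 matched that of Ccl21a at 297, 296 and 296 of 299 aligned bases. At these 3 copies a peak was called in mTEC1 replicate 2 (−log10 q 2.41, 2.2 and 1.74) and in mTEC2 replicate 1 (1.56, 1.91 and 1.86), and in neither mTEC1 replicate 1 nor mTEC2 replicate 2. Over the copies together, then, mTEC2 replicate 1 was not without a peak, and which copy the reads came from is uncertain. The rest of the Ccl21a window held 2 regions called strongly in all 4 lists, at chr4:42766635-42766751 and chr4:42767294-42767396, with −log10 q from 8.08 to 12.8 and from 4.51 to 18.0.

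Krt18 and Enpep showed the converse pattern. The Krt18 promoter lay under a peak in mTEC2 replicates 1 and 2 (−log10 q 2.08 and 3.23), in neither mTEC1 list, in all 4 embryonic lists and in mTEC4 replicate 2. The mTEC2 replicate 1 peak at Krt18 ranked at 43399, so it fell out at equal length. Krt8, the keratin that pairs with Krt18, had a peak over its promoter in all 4 lists (3.12, 5.26, 4.81 and 2.91), and Epcam, the surface protein used to sort epithelium, in every list but mTEC2 replicate 2 (2.13, 1.63 and 1.84). The Enpep promoter had −log10 q of 1.42 and 1.97 in the mTEC2 lists and was embryonic in 4 of 4 lists, and at equal length its mTEC2 replicate 1 peak fell out. Psmb11 was graded rather than exclusive. Its promoter peak had −log10 q of 7.18 in mTEC2 replicate 1, 2.9 in mTEC2 replicate 2 and 1.34 in mTEC1 replicate 2, and none was called in mTEC1 replicate 1, while the embryonic lists all had one. The mTEC1 replicate 2 peak at Psmb11 ranked at 48486 and so lay below the length limit of 40858.

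**Figure D5:**
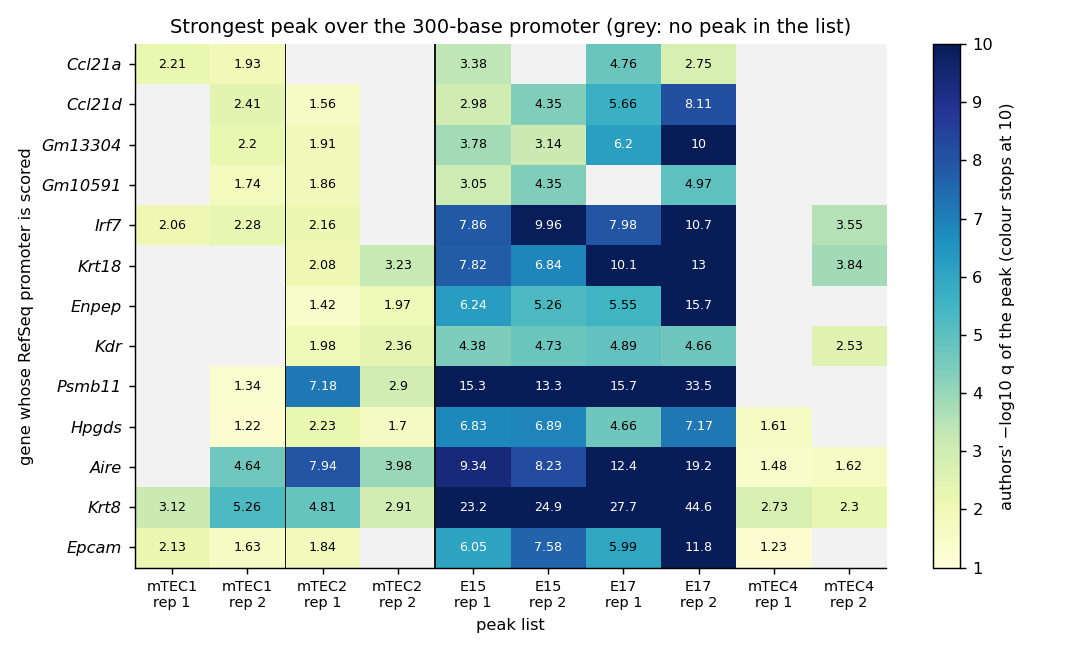
Authors' −log10 q of the strongest peak over the 300-base promoter of 13 genes in each of the 10 lists, grey where no peak was called; colour stops at 10. Ccl21a has peaks in both mTEC1 lists (2.21 and 1.93) and neither mTEC2 list, its copies Ccl21d, Gm13304 and Gm10591 in mTEC1 replicate 2 and mTEC2 replicate 1, and Krt18, Enpep and Kdr in both mTEC2 lists and neither mTEC1 list.

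Short binding motifs were searched on both strands of the 300-base promoters, and a match is only a run of letters. The AP-1 motif TGANTCA, the site of Fos and Jun dimers, was in 1 of 66 mTEC1-only promoters (1.52%) and 14 of 149 mTEC2-only promoters (9.4%), against 6.99% of all promoters. At equal length it was in 1 of 76 (1.32%) and 8 of 179 (4.47%), so the mTEC2-only share no longer exceeded that of all promoters. The related CRE motif TGACGTCA was in 0 of 66 and in 7 of 149 (4.7%), against 2.24%, and at equal length in 1.32% and 5.59%. The E-box CAGCTG was in 21.2% and 16.1%, against 15.6%, and in 11.8% and 14.0% at equal length. The CTCF core AGGGGGC was in 21.2% and 18.8%, against 12.9%, and in 11.8% and 19.6% at equal length, so the mTEC1-only shares of both motifs fell below that of all promoters. The GC box GGGCGGGG, which SP and KLF factors bind, was in 28.8% and 28.9%, against 23.6%, and in 21.1% and 27.9% at equal length. Many of all promoters lay under no peak. Of promoters under a peak in all 4 lists as deposited, 41.4% held the GC box, 18.7% the CTCF core, 4.31% the CRE motif and 3.4% the AP-1 motif. Both GC box shares lay below this, and the mTEC2-only CTCF and CRE shares were near it. The crossed set of mTEC1 replicate 2 and mTEC2 replicate 1 had the GC box in 28.1% and the CTCF core in 17.1%. The sets had median GC contents of 63.7% and 59.7%, against 56.3% of all promoters, and the part of GC content in these shares was not tested. None of the 13 motifs searched matched in the promoters of Ccl21a, Krt18, Enpep or Psmb11.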

How the data were processed

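Per the submitters' processing notes, the authors used cutadapt, Bowtie2, Picard and MACS2 with build mm10. Each library has its own deposited broad peak list, with a score, a fold enrichment ratio, a −log10 p and a −log10 q for each peak; the smallest −log10 q in the deposited lists was 1.0002. Tool versions and settings: not given in the sources used here. Peaks with 1 bp of overlap, or that touched, were merged, and any overlapping peak made a region called in that list, in Python 3.11 with pandas and NumPy. Coordinates and promoters were from RefSeq on GRCm38.p6, the assembly behind mm10, matched by symbol (234 of 234 listed genes). The code was tested on simulated lists. No genome sequence was used here, so motifs were searched in RefSeq promoters instead of region sequences, a choice made after seeing the data, as were the comparisons of 1 list with 1 list, the promoter counts, and the placement and cortical counts without mTEC1 replicate 1. The genes named were 6 chosen genes, the genes nearest the 10 strongest regions per direction at equal length, up to 10 listed genes with the most regions, up to 5 genes with the most regions at equal length, and the genes of the lists whose counts are given; Ccl21d, Gm13304, Gm10591, Krt8 and Epcam were named after their values were seen. The region sets, gene lists and rules were chosen with earlier results of these data known. Depth is unknown, so no interval is given. The alternatives were another threshold, coverage, merging gap, ranking column, list length, gene distance and window, autosomes alone, and each library left out. The counts of the TEC and epithelial identity list are not reported here.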

Additional observations from a re-analysis of the deposited data

How the results depend on the processing

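No paired analysis was possible because no count comes from a test that could hold a block, and the pairing of same-numbered lists is itself 1 of the 3 pairings (7456 regions as deposited). The mTEC1-only count of 4779 fell to 1155 with −log10 q of at least 2, to 108 with at least 5, to 3094 when peaks had to cover 50% of a region and to 1510 at equal list length, and the mTEC2-only count of 4155 fell to 2197 and 403 at the same thresholds. At equal length the counts were 635 and 1369 with the 20000 strongest peaks, and 440 and 532 with the 10000 strongest. Leaving out 1 library gave 5313 to 52686 mTEC1-only and 5504 to 57614 mTEC2-only regions as deposited, and 2108 to 23569 and 3869 to 20359 at equal length, since 1 list then meets fewer conditions. Without mTEC1 replicate 1 the counts were 32878 mTEC1-only and 5504 mTEC2-only regions, and 16212 and 3869 at equal length. The difference in list similarity ranged from -4.07 percentage points without mTEC1 replicate 1 to 3.94 without mTEC1 replicate 2, the only positive value. Genes nearest to mTEC1-only regions numbered 1093 at equal length. Genes with more regions in both mTEC1 lists numbered 535 for the gene span alone, and those with more in both mTEC2 lists 1690 at equal length. The embryonic difference of 58.4 percentage points was 39.1 at equal length, ranged from -8.03 to 75.7 without 1 library, and from -29.5 to 63.9 at equal length, negative without mTEC2 replicate 1 in both; the cause was not tested. Promoters ranged from 89 to 1066 for mTEC1-only and from 239 to 1011 for mTEC2-only without 1 library. The crossed pairing gave the most regions of the 3 pairings under every setting run on regions, and the other 33 values kept their direction. Counts among them stayed within 1.5 times the reported count, and the embryonic difference within 1 SD. The differences in list similarity among them kept their direction but not their size, from -0.444 to -4.07 against -0.917 as deposited. Unknown depth and 2 libraries per fraction limit every count.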
